A study of Mus musculus with 15 samples.

Results

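POU homeobox genes encode transcription factors of developing neurons, and 8 of them were followed across 5 regions of the embryonic mouse brain: Pou3f1, Pou3f2, Pou3f3 and Pou3f4 of class III, Pou4f1, Pou4f2 and Pou4f3 of class IV, and Pou6f1 of class VI. They were chosen by gene symbol from the 24264 genes of the deposited table, with earlier results of these data known. RNA had been sequenced from tissue of C57bl/6 embryos at stage E12.5, in 3 libraries each of dorsal midbrain, alar plate, ventral midbrain, forebrain and hindbrain. All 15 libraries came from mice that express green fluorescent protein from the promoter of Th, the gene of tyrosine hydroxylase, and the dissected pieces hold progenitors, neurons, vessels and coverings together. The labels do not say which stretch of the brain the alar plate pieces came from, and they do not say whether the 3 libraries of a region are separate embryos. The p-values thus rest on sample-to-sample spread that could be partly technical.

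A POU protein grips DNA with a POU-specific domain and a POU homeodomain joined by a flexible linker. Class III proteins appear in neural tube progenitors and young neurons, where they work with Sox partners and with proneural factors. Class IV proteins mark postmitotic neurons of the sensory pathways, the tectum, the habenula and the red nucleus, and they sustain late steps of differentiation such as axon growth and survival. Class VI proteins are less well understood, and Pou6f1 (Brn5) is widespread in the nervous system.

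The sequence just upstream of the annotated start is shown for 5 of the genes, because the matched class III members hold a CCAAT motif there and the matched class IV members do not. RefSeq promoters of GRCm38.p6 were matched for 6 of the 8 genes, all except Pou3f1 and Pou4f3, and the 250 bases before the start are printed. Capitals mark CCAAT on either strand (read as ATTGG on the opposite one), a motif bound by general promoter factors.
Pou3f2, chr4:22488367-22488616, minus strand: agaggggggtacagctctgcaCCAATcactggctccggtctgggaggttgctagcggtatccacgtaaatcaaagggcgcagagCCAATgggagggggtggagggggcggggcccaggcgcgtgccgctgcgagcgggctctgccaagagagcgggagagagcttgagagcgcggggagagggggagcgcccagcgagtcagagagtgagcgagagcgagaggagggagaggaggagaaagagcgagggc
Pou3f3, chr1:42695518-42695767, plus strand: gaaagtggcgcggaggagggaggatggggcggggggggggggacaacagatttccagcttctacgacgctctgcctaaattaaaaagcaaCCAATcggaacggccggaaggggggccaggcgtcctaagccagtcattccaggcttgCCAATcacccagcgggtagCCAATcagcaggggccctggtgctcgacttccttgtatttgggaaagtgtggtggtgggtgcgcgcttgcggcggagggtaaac
Pou3f4, chrX:110814129-110814378, plus strand: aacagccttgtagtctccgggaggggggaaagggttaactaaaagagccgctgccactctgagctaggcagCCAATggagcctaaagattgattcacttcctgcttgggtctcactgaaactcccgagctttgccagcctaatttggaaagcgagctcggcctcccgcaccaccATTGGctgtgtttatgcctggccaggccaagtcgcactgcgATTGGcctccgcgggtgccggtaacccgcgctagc
Pou4f1, chr14:104468000-104468249, minus strand: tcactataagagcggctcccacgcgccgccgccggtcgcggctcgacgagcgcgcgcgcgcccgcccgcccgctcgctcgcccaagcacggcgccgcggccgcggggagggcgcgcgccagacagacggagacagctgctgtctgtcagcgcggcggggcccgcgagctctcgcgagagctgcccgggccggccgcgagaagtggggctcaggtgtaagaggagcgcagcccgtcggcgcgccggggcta
Pou4f2, chr8:78436648-78436897, minus strand: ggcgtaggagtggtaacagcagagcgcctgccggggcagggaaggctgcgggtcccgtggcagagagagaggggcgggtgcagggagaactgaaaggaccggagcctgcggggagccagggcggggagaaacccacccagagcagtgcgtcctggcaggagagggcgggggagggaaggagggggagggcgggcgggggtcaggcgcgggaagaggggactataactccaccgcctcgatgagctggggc
CCAAT was found 2 times before Pou3f2, 3 times before Pou3f3 and 3 times before Pou3f4. It was not found in these windows of Pou4f1, Pou4f2 or Pou6f1. Of 32851 promoter windows of the same length, 33.8% held it. The octamer ATGCAAAT, a site read by POU proteins, was present in 1.60% of all windows and in none of the 6. The same held for ATTAAT, a core favoured by class IV proteins (4.39% of all windows), for the homeodomain core TAATTA (4.84%) and for the TATA box letters TATAAA (12.4%), each searched on both strands. GC content was 78% before Pou4f1 and 70.8% before Pou4f2, against 66.8% for Pou3f2, 60.8% for Pou3f3, 58% for Pou3f4 and 68% for Pou6f1, and the median of all windows was 52.4%. These matches describe letters in a window and were not tied to binding.

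The libraries held 8180535 to 12378961 recovered reads in gene models. Here 3 libraries stood apart from the other 2 of their region across all genes on the log2 scale: dorsal midbrain 3 (Pearson r 0.967 and 0.971, against 0.995 between the other pair), forebrain 1 (0.964 and 0.960, against 0.990) and alar plate 3 (0.927 and 0.925, against 0.987). In alar plate 3 the 25% of genes with the shortest models had a median RPKM 2.63 times that of the 25% with the longest, against 1.0 to 1.15 in the other 14 libraries. Th reached 68.9 to 81.7 RPKM in the ventral midbrain and at most 6.39 elsewhere. The thalamic factor Tcf7l2 was 403, 259 and 132 RPKM in the 3 forebrain libraries. Tcf7l2 was also 378 RPKM in dorsal midbrain 3 and 215 in alar plate 3, against 18.9 to 80.4 in the other libraries of those regions. The rhombomere gene Hoxa2 was 0.107 RPKM in hindbrain 1 and 11.1 and 6.24 in hindbrain 2 and 3. Summed, the 4 midbrain and isthmus markers En1, En2, Otx2 and Pax5 gave 99.2 RPKM in hindbrain 1 and 26.5 and 22.5 in its pair. Among them Otx2 was not raised in hindbrain 1 (4.22 RPKM, against 4.07 and 9.07). Results that rest on the 3 libraries are given with and without them below.

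All 8 genes reached 1 RPKM (a read number scaled by the length of the gene model and by the library's mapped reads) in at least 3 libraries and were tested among 13745 genes, although Pou4f3 reached it only in dorsal midbrain and alar plate libraries. With limma on log2(RPKM + 1) and an adjusted p below 0.05 as the call, 6 of the 8 differed across the 5 regions, where 33.7% of all genes tested did. The exceptions were Pou3f4 (adjusted p = 0.183) and Pou6f1 (adjusted p = 0.701). The alar plate had 5 of the 8 called higher than the mean of the other 4 regions, against 1.24% of all genes, and 0 called lower, against 3.41%. In the dorsal midbrain 4 were higher, against 18.2% of all genes, and 1 was lower, against 13.8%. The ventral midbrain had 4 lower, against 3.16% of all genes, and 0 higher, against 7.43%. In the hindbrain 3 were lower, against 2.27%, and 0 higher, against 4.03%. No member was called in the forebrain by limma, where 2.92% of all genes were called, 2 members had an unadjusted p below 0.05 and limma voom on recovered reads called 0. The median log2 difference of the 8 genes was 0.93 in the alar plate (all genes, -0.01), 0.77 in the dorsal midbrain (0.05), -0.48 in the ventral midbrain (-0.02), -0.03 for the forebrain (-0.03) and -0.64 for the hindbrain (-0.01). Pou4f3 is counted across the regions and in every region except the forebrain. It passed the filter through alar plate and dorsal midbrain libraries alone, so it adds no support to these counts. At a filter of 5 RPKM, which left Pou4f3 out, 13 calls of a region against the other 4 were made among 7 members, against 17 among 8. Pou4f2 reached 5 RPKM only in alar plate and dorsal midbrain libraries, so its calls at that filter add no support either. The 5 comparisons come from 1 fit and share all their samples. In whole tissue, fewer cells of a type and less RNA per cell cannot be told apart.

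Without dorsal midbrain 3, forebrain 1 and alar plate 3 all 8 genes differed across the regions, and so did 70.7% of all genes. In that fit of 12 libraries all 8 were higher in the alar plate (5.09% of all genes) and 7 were lower in the ventral midbrain (17.5%). The dorsal midbrain had 5 higher and 1 lower (35.8% and 28.6%), the hindbrain 5 lower (19.4%) and the forebrain 4 lower (24.8%). Pou4f3 is counted in each of these regions except the forebrain. The libraries left out were picked in these same data for standing apart from their region. Leaving them out tends to narrow the spread within regions, so the higher counts add no support.

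**Figure D1:**
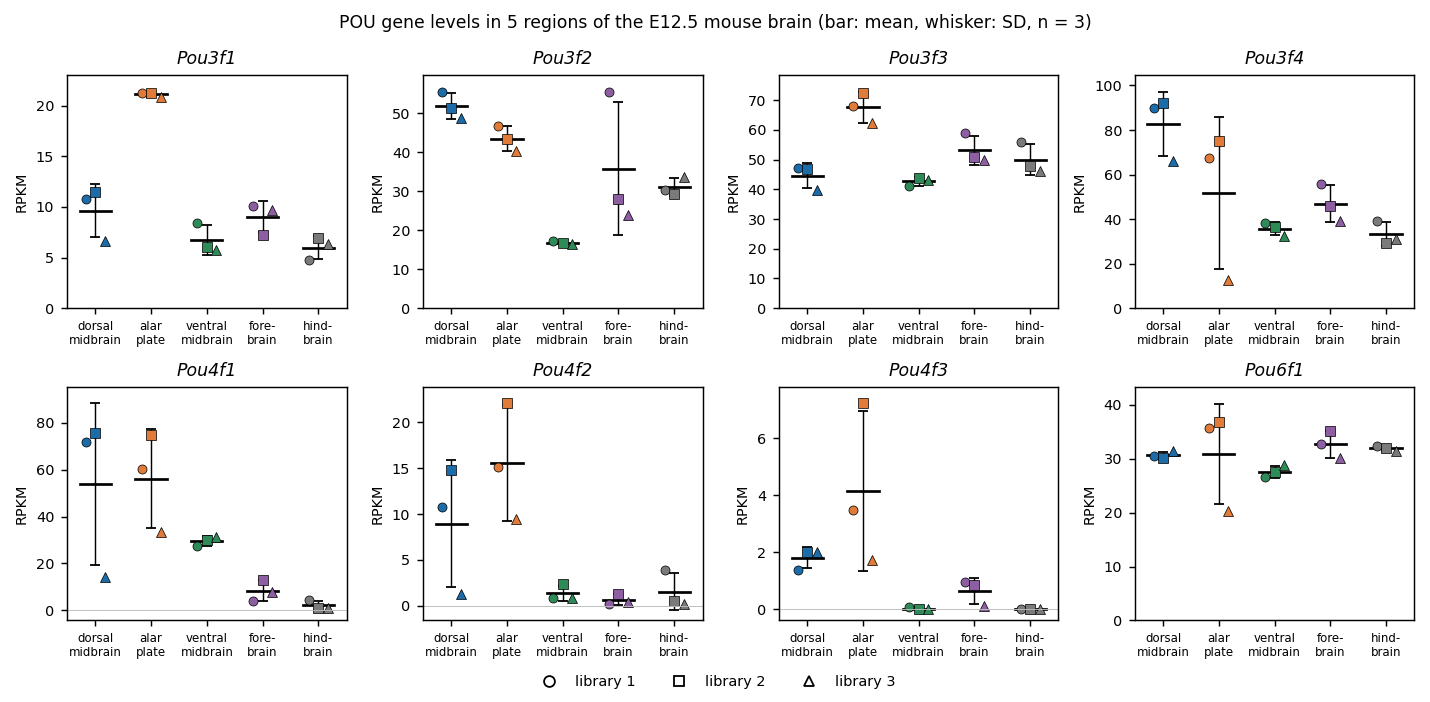
RPKM of each POU gene in every library, by region, with a bar at the mean and a whisker of 1 SD (n = 3); the marker shape gives the library number. The 3 alar plate libraries lie above all others for Pou3f1 (20.8 to 21.2 RPKM) and Pou3f3 (62.2 to 72.5), the 3 ventral midbrain libraries lie below all others for Pou3f2 (16.6 to 17.1), and alar plate 3 lies far below its pair for Pou3f4 (12.6).

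**Figure D2:**
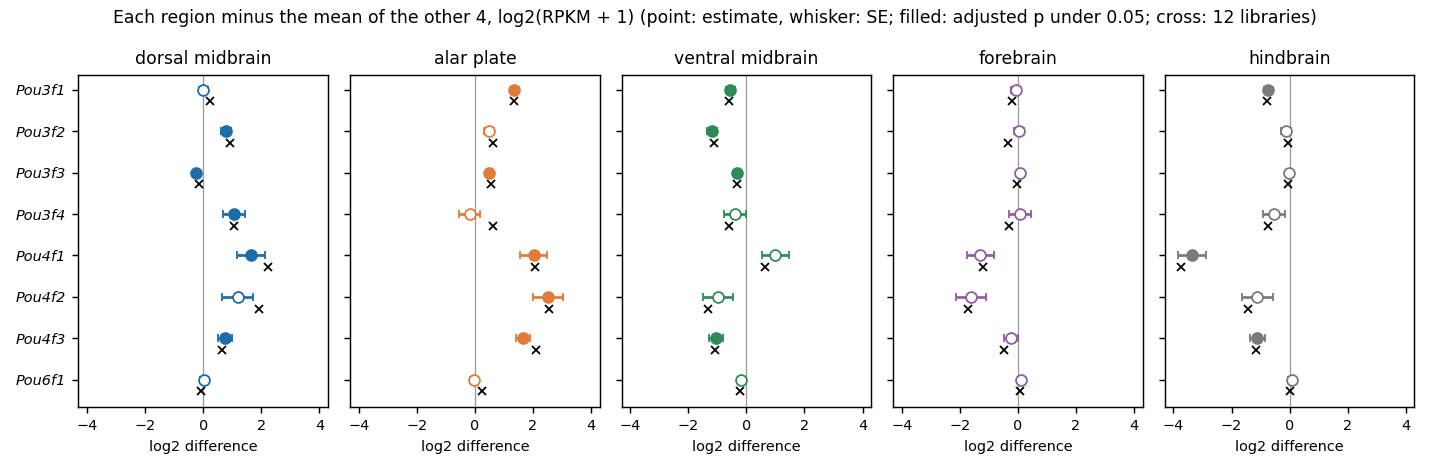
Log2 difference of each region from the mean of the other 4 for the 8 genes, on the log2(RPKM + 1) scale. Circles are estimates from 15 libraries with their SE, filled where the adjusted p is below 0.05, and crosses are estimates from the 12 libraries left without dorsal midbrain 3, forebrain 1 and alar plate 3; Pou4f1 in the hindbrain has the lowest estimate (-3.36) and Pou4f2 in the alar plate the highest (2.52).

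Pou3f1 (Oct6, also SCIP), a class III factor known for its part in Schwann cell myelination and cortical neurons, was the weakest of its class except in alar plate 3. Its level was 21.2, 21.2 and 20.8 RPKM in alar plate 1, 2 and 3. The dorsal midbrain had 10.8, 11.5 and 6.60 RPKM, the forebrain 10.1, 7.25 and 9.72, the ventral midbrain 8.41, 6.06 and 5.74, and the hindbrain 4.74, 6.92 and 6.31. Every alar plate library lay above all 12 others, while the other 4 regions overlapped one another in part. The alar plate mean was 21.1 ± 0.25 RPKM (SD, n = 3), 3.52 times that of the hindbrain (5.99 ± 1.12). The log2 difference from the other 4 regions was 1.36 ± 0.156 (SE, adjusted p = 0.00052), and it stayed called without any 1 of the 15 libraries. Alar plate 3, which stood apart across genes, was level with its pair for this gene. The next region in the order, the dorsal midbrain, was 1.09 lower (adjusted p = 0.0184), and no difference between the other neighbours in the order was called (adjusted p from 0.331 to 0.914). Lower levels were called in the hindbrain (-0.73 ± 0.156, adjusted p = 0.0139) and the ventral midbrain (-0.55 ± 0.156, adjusted p = 0.0386). The hindbrain call ended without hindbrain 1 (adjusted p = 0.097) or hindbrain 3 (adjusted p = 0.0668), and the ventral midbrain call ended in 9 of the 15 fits that left out a library (adjusted p up to 0.237).

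Pou3f2 (Brn2), which is needed for hypothalamic neuroendocrine neurons and helps convert fibroblasts to neurons, was lowest in the ventral midbrain. Its 3 libraries there read 17.1, 16.6 and 16.6 RPKM, below all 12 others. The dorsal midbrain read 55.4, 51.2 and 48.8 RPKM, the alar plate 46.8, 43.2 and 40.4, and the hindbrain 30.3, 29.2 and 33.5. In the forebrain, library 1 had 55.4 RPKM, within the range of the dorsal midbrain libraries, and libraries 2 and 3 had 27.9 and 23.9, below every hindbrain library. The log2 difference of the ventral midbrain from the other regions was -1.17 ± 0.172 (SE, adjusted p = 0.000524), and this call held in all 15 fits without a library. The dorsal midbrain mean, 51.8 ± 3.36 RPKM (SD, n = 3), was 3.09 times the ventral one (16.8 ± 0.298), and it was called higher than the other regions (0.79 ± 0.172, adjusted p = 0.00541), a call that ended without dorsal midbrain 1 (adjusted p = 0.0502). Dorsal midbrain and alar plate libraries did not overlap, yet their difference was not called (0.25, adjusted p = 0.505). Hindbrain and ventral midbrain, at the low end of the order, differed by 0.85 (adjusted p = 0.0484), a call that ended in 12 of 15 fits without a library (adjusted p up to 0.198). Without forebrain 1 the forebrain difference for Pou3f2 turned from 0.02 to -0.34 (adjusted p = 0.0398), and the alar plate was called higher (0.57, adjusted p = 0.000784).

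Pou3f3 (Brn1), which acts alongside Pou3f2 in cortical neuron production and migration, was the most even of the class III genes. It read 68.1, 72.5 and 62.2 RPKM in the alar plate, above all 12 other libraries. The forebrain had 58.8, 50.9 and 49.9 RPKM and the hindbrain 55.9, 47.8 and 46.0, while the dorsal midbrain had 47.0, 46.9 and 39.7 and the ventral midbrain 41.0, 43.7 and 43.3. Outside the alar plate, each region overlapped its neighbour in the order. The highest mean (67.6 ± 5.17 RPKM, SD, n = 3) was 1.58 times the lowest (42.7 ± 1.41, ventral midbrain). The alar plate was called higher (0.50 ± 0.0821, adjusted p = 0.00396), in all 15 fits without a library too, although the difference from its neighbour in the order, the forebrain, was not called (0.34, adjusted p = 0.15). Lower calls were small: -0.31 in the ventral midbrain (adjusted p = 0.0284) and -0.24 in the dorsal midbrain (adjusted p = 0.0423). The ventral midbrain call for Pou3f3 ended without each of its own 3 libraries (adjusted p from 0.0992 to 0.156) and after quantile normalization (adjusted p = 0.114), and the dorsal midbrain call ended in 11 of 15 fits.

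Reads next to Pou3f3 bear on its counting. The gene 2900092D14Rik follows it in RefSeq and falls within the longer Pou3f3 model of GENCODE M21, which also has a sense-overlapping RNA gene across both, so reads of the pair cannot be told apart with certainty. Its alar plate values were 15.1, 13.5 and 11.9 RPKM, and all other libraries had 7.90 to 11.6. On the other side lies 2610017I09Rik (Pantr1, named here after its values were seen), with 94.4, 86.1 and 133 RPKM in the alar plate. Pou3f1 and Pou6f1 have antisense genes in that annotation, and whether counting used strand is not given in the sources used here.

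Pou3f4 (Brn4), an X-linked class III factor of the inner ear and neural tube, had the highest single values of the 8 genes and no call across the regions. The dorsal midbrain read 90.05, 92.0 and 66.1 RPKM. In the alar plate, libraries 1 and 2 read 67.7 and 75.0 RPKM and library 3 read 12.6, the lowest of all 15. The forebrain had 55.6, 45.9 and 39.1 RPKM, the ventral midbrain 38.4, 36.3 and 32.5, and the hindbrain 39.4, 29.2 and 31.0. Alar plate 1 and 2 thus lay between dorsal midbrain 3 and its pair, and the alar plate mean of 51.8 ± 34.1 RPKM (SD, n = 3) describes no library. The dorsal midbrain (82.7 ± 14.4) was 1.07 ± 0.373 higher than the other regions (adjusted p = 0.0445), a call that ended in 11 of 15 fits without a library, with no filter (adjusted p = 0.0565) and under median-ratio scaling (adjusted p = 0.0538). No step in the order of the regions was called (adjusted p from 0.235 to 0.986). Without alar plate 3 the adjusted p across the regions was 0.000248 and the alar plate difference for Pou3f4 turned from -0.18 to 0.62 (adjusted p = 0.0359). The Pou3f4 model was among the shorter ones, 0.186 times the length of the Pou3f2 model, and the shortest models read high relative to the longest in alar plate 3. The part of that library's length pattern in the value was not tested.

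**Figure D3:**
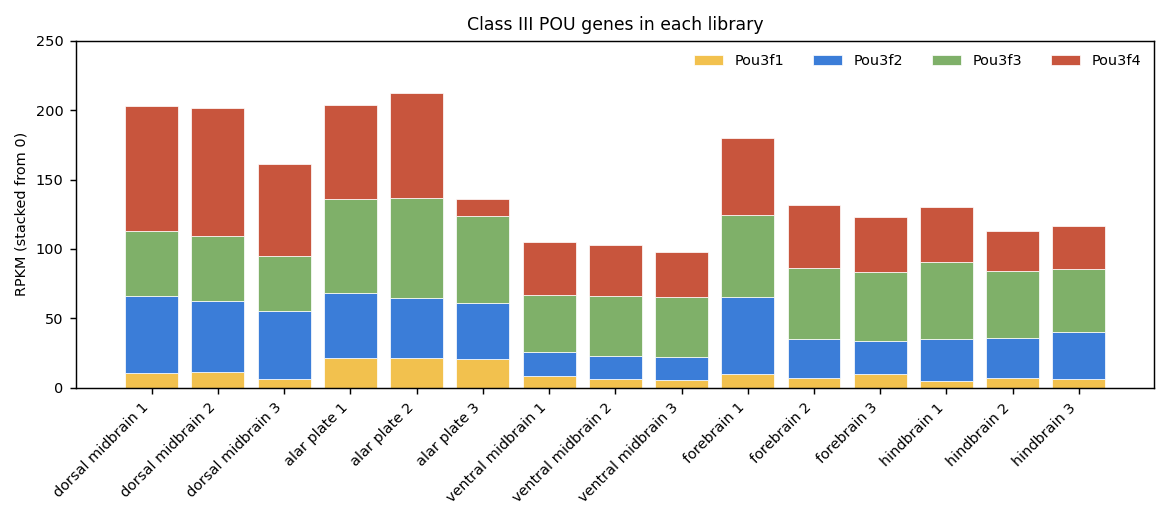
RPKM of the 4 class III genes stacked from 0 in each of the 15 libraries. The stack is lowest in the 3 ventral midbrain libraries (98.1 to 105 RPKM), where the Pou3f2 segment is the narrowest of its kind, and alar plate 3 (136) lacks most of the Pou3f4 segment seen in its pair.

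Summed per length, the 4 class III genes gave 203, 202 and 161 RPKM in the dorsal midbrain, 204, 212 and 136 in the alar plate, 180, 132 and 123 in the forebrain, 130, 113 and 117 in the hindbrain and 105, 103 and 98.1 in the ventral midbrain. Only the ventral midbrain lay below all other libraries. The makeup of the sum also varied. Pou3f4 made up 41.0% to 45.6% of it in the dorsal midbrain, where it was the first of the 4, and at most 36.6% in any other library. Pou3f3 led in the ventral midbrain (39.1% to 44.1%), the hindbrain (39.4% to 42.9%) and the forebrain (32.7% to 40.7%). Pou3f2 took 16.2% to 16.9% in the ventral midbrain and 19.5% to 30.8% elsewhere. Pou3f1 took 10.02% to 15.3% in the alar plate and 3.64% to 8.01% elsewhere. These shares are levels of 1 gene relative to its class and carry no test.

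Pou4f1 (Brn3a), a factor of sensory ganglia, tectum, habenula and red nucleus neurons, ranged over more than an order of magnitude. The alar plate read 60.2, 74.8 and 33.3 RPKM, and the dorsal midbrain 71.7, 75.6 and 14.1. The ventral midbrain was tight at 27.4, 29.9 and 31.3 RPKM, the forebrain had 4.10, 13.0 and 7.78, and the hindbrain 4.39, 0.876 and 0.999. The alar plate, dorsal midbrain and ventral midbrain lay above every forebrain and hindbrain library, although dorsal midbrain 3 fell below every ventral midbrain library. Alar plate and hindbrain means stood 26.8-fold apart (56.1 ± 21.0 and 2.09 ± 1.996 RPKM, SD, n = 3), and 59.8-fold without hindbrain 1. The hindbrain difference was -3.36 ± 0.469 on the log2 scale (SE, adjusted p = 0.000714) and was called in all 15 fits without a library. Higher calls were made in the alar plate (2.03 ± 0.469, adjusted p = 0.0281) and the dorsal midbrain (1.65 ± 0.469, adjusted p = 0.0189). The first ended without alar plate 2 (adjusted p = 0.0627) or any ventral midbrain library (adjusted p from 0.0502 to 0.0513), and the second without dorsal midbrain 1 (adjusted p = 0.148) or 2 (adjusted p = 0.14). In the order of the means no step was called: alar plate to dorsal midbrain (adjusted p = 0.782), dorsal to ventral midbrain (0.557), ventral midbrain to forebrain (1.83, adjusted p = 0.082, with no overlap of libraries) and forebrain to hindbrain (0.251).

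Pou4f2 (Brn3b), best known for retinal ganglion cells and also made by tectal neurons, was high in a smaller set of libraries. It read 15.2, 22.1 and 9.50 RPKM in the alar plate and 10.7, 14.8 and 1.28 in the dorsal midbrain. Elsewhere the level was low: 0.837, 2.34 and 0.870 RPKM in the ventral midbrain, 0.215, 1.32 and 0.423 for the forebrain, and 3.88, 0.541 and 0.245 for the hindbrain. All 3 alar plate libraries exceeded every ventral midbrain, forebrain and hindbrain library, and dorsal midbrain 3 lay among those regions. The alar plate mean (15.6 ± 6.30 RPKM, SD, n = 3) was 23.9 times that of the forebrain (0.652 ± 0.586), and 48.9 times without forebrain 2. The alar plate difference was 2.52 ± 0.522 (adjusted p = 0.0165) and was no longer called without alar plate 2 (adjusted p = 0.0545). The dorsal midbrain difference was 1.18 (adjusted p = 0.1) and became 2.04 (adjusted p = 0.00465) without dorsal midbrain 3. In the order of the means, dorsal midbrain and hindbrain differed (1.83, adjusted p = 0.0496), a call that ended in 12 of 15 fits without a library (adjusted p up to 0.208) and by limma voom (adjusted p = 0.077), and the other steps were not called (adjusted p from 0.347 to 0.99).

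Pou4f3 (Brn3c), required by the hair cells of the inner ear, had the lowest RPKM of the 8 genes in 13 libraries, the exceptions being dorsal midbrain 3 and forebrain 1, where Pou4f2 was lower. Its values were 3.48, 7.22 and 1.73 RPKM in the alar plate (59, 112 and 22 reads) and 1.39, 2.03 and 2.02 in the dorsal midbrain (20, 31 and 29 reads). The forebrain had 0.980, 0.854 and 0.132 RPKM (12, 10 and 2 reads). A single read fell on the gene in the 3 ventral midbrain libraries together, and the hindbrain libraries had 0. Dorsal midbrain and alar plate lay above all other libraries and overlapped each other. With 3 reads as the limit that a count of 0 allows, a hindbrain library could hold up to 0.195 to 0.229 RPKM. The alar plate mean was at least 18.1-fold higher, and the dorsal midbrain mean at least 7.91-fold higher, than the largest of these limits per library, which cover counting error only. Without alar plate 2 the first of these bounds was 11.4-fold. The alar plate call (1.66 ± 0.247, adjusted p = 0.00248) held in all 15 fits without a library. Dorsal midbrain (0.75, adjusted p = 0.0357), ventral midbrain (-1.05, adjusted p = 0.0141) and hindbrain (-1.11, adjusted p = 0.0181) were called too; the last 2 ended without each of their own libraries, and the dorsal midbrain call ended in 7 of 15 fits. Since the gene entered the test through its high regions alone, these calls are no support for its read counts or for the numbers of called members. No step in the order of its means was called (adjusted p from 0.0743 to 0.991).

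Within class IV the balance shifted between regions. Pou4f1 exceeded Pou4f2 in every library. The Pou4f1 to Pou4f2 ratio was 3.97, 3.39 and 3.50 in the alar plate and 6.67, 5.12 and 11.03 in the dorsal midbrain. It was 32.7, 12.8 and 36.0 in the ventral midbrain, and 19.1, 9.85 and 18.4 in the forebrain. In the hindbrain, where both genes were low, it was 1.13, 1.62 and 4.08. Alar plate 3 had the lowest levels of both genes in its region and a ratio between those of its pair. The ventral midbrain thus held Pou4f1 at 27.4 to 31.3 RPKM with little Pou4f2 and next to no Pou4f3. Summed, class IV gave 78.8, 104 and 44.5 RPKM in the alar plate, 83.8, 92.4 and 17.4 in the dorsal midbrain, 28.3, 32.3 and 32.2 in the ventral midbrain, 5.30, 15.1 and 8.34 in the forebrain, with 8.27, 1.42 and 1.24 left in the hindbrain.

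**Figure D4:**
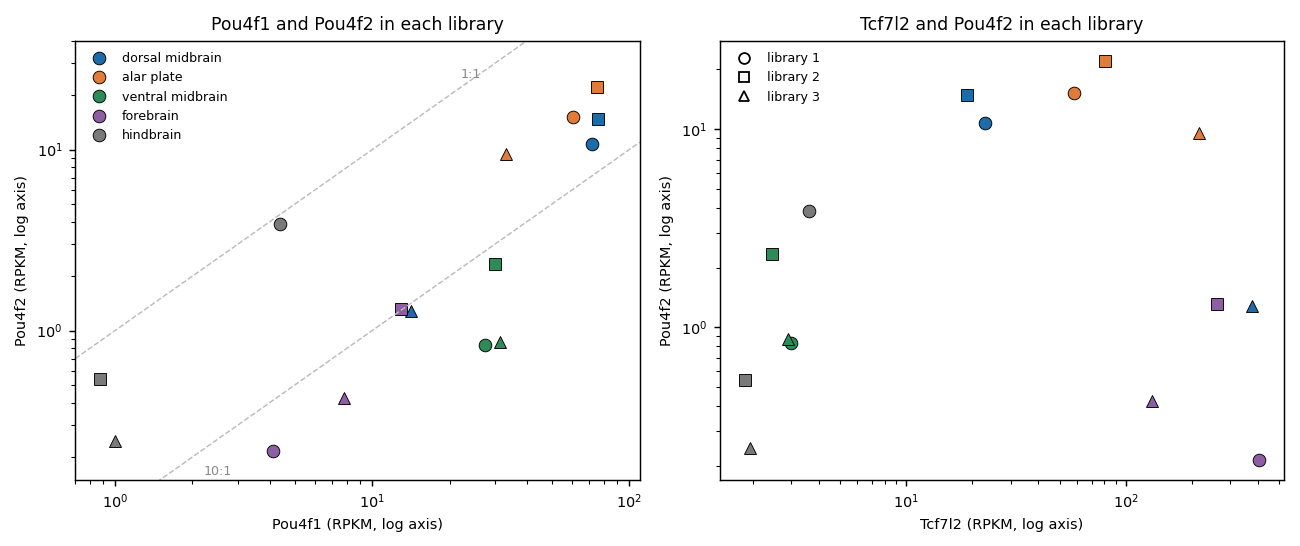
Left, Pou4f1 against Pou4f2 in each library (RPKM, log axes) with dashed lines at equal levels and at 10 to 1. Right, Tcf7l2 against Pou4f2 (RPKM, log axes); colours give the region and shapes the library. Ventral midbrain libraries lie below the 10 to 1 line, and dorsal midbrain 3 sits with the forebrain libraries on the right (Tcf7l2 378, Pou4f2 1.28 RPKM).

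The 3 libraries that stood apart across genes also had less Pou4f1 and Pou4f2 than the other libraries of their region. Dorsal midbrain 3 had Pou4f1 5.21-fold and Pou4f2 9.96-fold below the mean of its pair, with Tcf7l2 at 378 RPKM and Gbx2 at 14.1, against 0.0776 and 0.110 for Gbx2 in the pair. Pax7, a marker of the dorsal midbrain, was 18.3 RPKM there and 36.8 and 40.4 in the pair. Alar plate 3 had Pou4f1 2.03-fold, Pou4f2 1.96-fold and Pou4f3 3.10-fold below its pair, with Gbx2 at 73.0 RPKM against 0.0989 and 0. Forebrain 1 had Pou4f1 2.53-fold and Pou4f2 4.05-fold below its pair, with Gbx2 at 111 RPKM against 8.89 and 5.44. Pou4f3 did not share the drop in dorsal midbrain 3 (2.02 RPKM, against 1.39 and 2.03) or in forebrain 1 (0.980, against 0.854 and 0.132). The part of these marker differences in the POU values was not tested.

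Markers of other sources of class IV transcripts were summed in every library. A list of 8 cranial sensory ganglion genes gave 10.9 to 23.9 RPKM in the alar plate, 3.12 to 14.1 in the dorsal midbrain, 16.4 to 22.4 in the ventral midbrain, 3.99 to 9.56 in the forebrain, with only 2.50 to 5.17 in the hindbrain. Isl1, which other neurons share, made up most of the ventral midbrain sums and 18.4 RPKM of that of alar plate 3. With Isl1 left out, a choice made after its values were seen, the other 7 genes gave 5.46 to 11.7 RPKM in the alar plate, 2.13 to 11.8 in the dorsal midbrain (lowest in library 3), 2.10 to 2.95 in the ventral midbrain, 1.65 to 4.12 in the forebrain and 2.44 to 3.35 in the hindbrain. Of the list's 5 tested genes, Prph was called higher in the alar plate (1.74, adjusted p = 0.0257) and Avil in the dorsal midbrain (0.65, adjusted p = 0.00848), beside 1.24% and 18.2% of all genes. The sodium channel gene Scn10a was at most 0.0428 RPKM in any library. The part of ganglion tissue in the class IV values was not tested. The 5 retina markers summed to at most 4.53 RPKM outside the hindbrain and to 25.4 to 27.7 in the hindbrain, where Pou4f2 was low. The 5 hair cell markers, which include genes of other tissues, gave 8.68 to 18.1 RPKM over all libraries, with Gfi1 at most 0.0635. Markers of meninges and mesenchyme, 6 genes, summed to 64.1 to 121 RPKM in the dorsal midbrain, 160, 8.61 and 46.3 in alar plate 1, 2 and 3, and at most 15.1 elsewhere. Alar plate 2, with the least of these, had the highest Pou4f1, Pou4f2 and Pou4f3 of its region. The other libraries did not share this order. Alar plate 3 lay below alar plate 1 in these markers and in all 3 genes. Dorsal midbrain 3, with the least of its region (64.1 RPKM), had the lowest Pou4f1 and Pou4f2 there, though not the lowest Pou4f3. The 9 pan-neuronal genes in the table had 5 members lower in the dorsal midbrain and 3 higher in the ventral midbrain (13.8% and 7.43% of all genes), and of 10 progenitor and division genes 6 were higher and 1 lower in the dorsal midbrain (18.2% and 13.8%). The part of such cell makeup in the POU differences was not tested.

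Pou6f1 (Brn5) was nearly even. The dorsal midbrain read 30.5, 30.1 and 31.3 RPKM, the hindbrain 32.4, 32.0 and 31.4, the forebrain 32.7, 35.1 and 30.1 and the ventral midbrain 26.5, 27.4 and 28.8. The alar plate had 35.7 and 36.7 RPKM in libraries 1 and 2 and 20.3 in library 3, the lowest of all. Means ran from 27.6 ± 1.13 (ventral midbrain, SD, n = 3) to 32.6 ± 2.52 (forebrain), a 1.18-fold range, and no step in their order was called (adjusted p from 0.556 to 0.999). Without alar plate 3 the adjusted p across the regions was 0.00527, with Pou6f1 at 0.23 in the alar plate (adjusted p = 0.0331) and -0.24 in the ventral midbrain (adjusted p = 0.00308). With 0.734 times the model length of Pou3f2, the Pou6f1 model was among the longer ones. The longest models read low relative to the shortest in alar plate 3. The part of that length pattern in the Pou6f1 value was not tested.

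Between pairs of regions, alar plate and hindbrain were set apart by 5 members, all higher in the alar plate (3.49% of all genes). Alar plate against ventral midbrain also gave 5, all higher in the alar plate (5.13%). Dorsal midbrain against hindbrain gave 5, all higher in the dorsal midbrain (17.4%). Pou4f3, which entered the test through its high regions alone, is 1 of the 5 in each of these pairs. Dorsal midbrain against ventral midbrain gave Pou3f2 and Pou4f3 (2 members, 12.4%), and dorsal midbrain against forebrain gave Pou4f1 and Pou4f2 (2 members, 16.3%), all higher in the dorsal midbrain. Pou3f1 and Pou3f3 were the 2 members lower in the dorsal midbrain than in the alar plate (0.415%). Pou3f2 alone was lower in the ventral midbrain than in the forebrain (1.94%). The ventral midbrain exceeded the hindbrain in Pou4f1 (1 member, 2.39%) and fell below it in Pou3f2 (1 member, 1.40%). Alar plate against forebrain gave 0 members by limma (0.0946% of all genes; 5 at an unadjusted p below 0.05, 0 by limma voom; Pou4f2 alone with a replicate block, adjusted p = 0.042), and forebrain against hindbrain gave 0 (2.70%; 3 unadjusted, 0 by limma voom). The count for alar plate against forebrain depended on the libraries that stood apart: 7 members were higher in the alar plate without all 3 (14.6% of all genes), 5 without forebrain 1 (2.88%), 4 without dorsal midbrain 3 (1.01%) and 1 without alar plate 3 (0.277%). Pou4f3 was in each of these counts and was the 1 member left without alar plate 3. Of the 24 calls between pairs, 12 held in every fit that left out 1 library, those of Pou4f3 among them. The other 12 were lost in at least 1 such fit, among them Pou3f1 for dorsal midbrain against hindbrain (lost in 6 of 15, adjusted p up to 0.164), Pou4f2 for dorsal midbrain against forebrain (5 of 15, up to 0.119, and 0.0721 by limma voom) and Pou4f1 for the same pair (3 of 15, up to 0.0768).

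For each member the 3 genes with the most similar profile were taken by Pearson r over the 15 libraries on the log2 scale, as a description. All points share their library, depth and dissection. Pou4f2 was closest to Prph (r = 0.956), the peripherin gene of neurons with peripheral or long axons and a member of the ganglion list above, then to Stk39 (0.931) and Slc25a10 (0.879). Prph was 7.21, 6.22 and 4.03 RPKM in the alar plate, 5.36, 5.35 and 0.176 in the dorsal midbrain and at most 1.78 elsewhere. Like Pou4f2 it was low in dorsal midbrain 3. Pou4f1 was closest to the Wnt receptor gene Fzd2 (0.918), to Nop14 (0.897) and to 5930412G12Rik (0.896). Pou4f3 was closest to Kctd15 (0.947), Hs3st3b1 (0.919) and a second Wnt receptor gene, Fzd8 (0.915).

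Among class III, Pou3f2 was closest to Phf21b (0.957), Plagl1 (0.948) and Gli2 (0.945), an effector of hedgehog signalling that was 0.228 to 0.355 RPKM in the ventral midbrain and 8.09 to 11.1 in the dorsal midbrain. Pou3f1 was closest to Traf4 (0.894), Samd11 (0.892) and Ccng2 (0.880). Pou3f3 was closest to Klhl5 (0.912), its neighbour 2900092D14Rik (0.896) and Adck2 (0.851). Pou3f4 was closest to Zfp646 (0.983), Ipo9 (0.970) and Mtdh (0.966), and Pou6f1 to Usp42 (0.949), Nbea (0.946) and Tnrc6c (0.940). Zfp646 and Usp42 shared the low value of alar plate 3, at 7.55 and 10.4 RPKM. No member ranked among the 3 closest of another. The highest r between 2 members was 0.810 (Pou3f1 and Pou4f3), and Pou4f1 and Pou4f2 had 0.769. Without the 3 libraries Pou3f4 and Pou4f2 went from 0.380 to 0.907.

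Partners and targets of class III factors were read from a list of 15 genes, of which 12 were tested. Across the regions 5 were called, Sox3, Sim1, Sox11 and Fabp7 among them, beside 33.7% of all genes. Sox3, an X-linked progenitor factor, was 28.7, 30.3 and 13.6 RPKM in the dorsal midbrain, 20.5, 18.4 and 19.4 in the alar plate and 4.97, 5.71 and 5.75 in the ventral midbrain (ventral midbrain -1.07, adjusted p = 0.003). Sox11, made by young neurons, was lowest in the ventral midbrain at 98.5, 103 and 101 RPKM (-0.47, adjusted p = 0.00327). Sim1, which acts upstream of Pou3f2 in the hypothalamus, was higher in the ventral midbrain, at 5.44, 4.21 and 4.16 RPKM (1.79, adjusted p = 0.000885), where Pou3f2 was lowest. It was also higher in the forebrain, at 1.46, 2.85 and 7.58 RPKM (1.34, adjusted p = 0.0247). The hypothalamic hormone genes Crh, Oxt and Avp stayed at or below 1.14 RPKM.

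From 21 genes of class IV neurons 13 were tested and 7 were called across the regions, beside 33.7% of all genes. Barhl2, a homeobox gene of tectal and other dorsal neurons, was 41.6, 53.5 and 35.8 RPKM in the alar plate and 48.4, 55.4 and 29.5 in the dorsal midbrain, and 0.184, 0.318 and 0.423 in the ventral midbrain (-3.69, adjusted p = 4.17e-07). Unlike Pou4f1, it was near 0 in the ventral midbrain and stood at 20.9, 14.5 and 23.1 RPKM in the forebrain. Isl1, which is shared by sensory and motor neurons, was 20.1, 14.7 and 14.3 RPKM in the ventral midbrain (2.69, adjusted p = 0.0172) and 18.4 in alar plate 3, against 1.09 and 0.826 in its pair. Foxp2 was higher in the ventral midbrain (34.2, 33.2 and 35.9 RPKM; 1.11, adjusted p = 0.0152) and lower in the dorsal midbrain (4.24, 4.07 and 14.4; -1.70, adjusted p = 0.00119). Neurod4 was called across the regions (adjusted p = 0.0158) and read 8.12, 6.95 and 4.74 RPKM in the alar plate and 6.67, 4.28 and 5.73 in the dorsal midbrain. Atoh7, which precedes Pou4f2 in retinal ganglion cells, was at most 0.630 RPKM and listed at 0 in 11 libraries.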

How the data were processed

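RNA-seq of 15 tissue samples was used, 3 per region, grouped by the source tissue in the labels. Per the labels' protocols, regions were cut out by hand under magnification, and 200 ng of RNA went into each library. The authors deposited 1 table of RPKM values, with 1 column per sample. Bowtie and mm9 are named, per the submitters' processing notes. What counted the reads, on which annotation, with which filters and whether by strand is not given in the sources used here. RefSeq promoters and GENCODE M21 belong to GRCm38 and served only for sequences and overlapping genes.

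Members and gene lists were chosen with earlier results of these data known. Differences were tested with limma 3.58.1 (R 4.3.3) with a variance trend on log2(RPKM + 1), in 1 fit of all regions, for the 13745 of 24264 genes with at least 1 RPKM in at least 3 libraries. Tests were two-sided, with Benjamini-Hochberg adjustment over all these genes within each comparison and calls at an adjusted p under 0.05. Each region was set against the unweighted mean of the other 4, and all 10 pairs were tested. Fold changes on this scale understate low genes. Replicate numbers come from the sample titles.

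Reads were recovered from the steps of the low RPKM values. Of 16612 genes above 0 in at least 10 libraries, 16587 (99.8%) gave whole reads in every library, within 0.02 reads for small values and at most 0.15. At the median length of a gene, 3 reads are worth 0.0770 to 0.116 RPKM. The fits and the read recovery were tested on simulated data. Named genes were all 8 members, the 3 genes nearest each by Pearson r with a mean of at least 5 RPKM in a region, and up to 4 genes of a list with the lowest p across regions (Isl1, Crh, Oxt, Avp, Fabp7 and Atoh7 were added after their values were seen). Some genes of the lists are not reported here. Alternatives were a pseudocount of 0.1, no filter, a filter of 5 RPKM, median-ratio scaling, quantile normalization, leaving out each library or the 3 that stood apart, a replicate block and, chosen after seeing the data, limma voom on recovered reads.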

Additional observations from a re-analysis of the deposited data

How the results depend on the processing

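Of the 8 genes, 6 differed across the 5 regions under every alternative except 8 without the 3 libraries that stood apart, 8 without alar plate 3, and 5 of the 7 tested at a filter of 5 RPKM, which left out Pou4f3. At that filter Pou4f2 entered through alar plate and dorsal midbrain libraries alone. Calls of a region against the other 4 numbered 17, and 30 without the 3 libraries; leaving out 1 library gave 10 to 22. Calls between pairs numbered 24, and 53 without the 3 libraries; leaving out 1 library gave 16 to 38. Without 1 library, no count across the regions fell below 6 or rose above 8. The 3 libraries were picked in these same data for standing apart from their region. Leaving them out tends to narrow the spread within regions, so more calls without them add no support. Other causes of these shifts were not tested. Without the 3 libraries 13 differences changed sign, 7 of them called in neither fit, and the other 6 belong to 3 genes. Pou3f2 in the forebrain was -0.36 without the 3 libraries, and -0.34 (without forebrain 1) to 0.25 when 1 library was left out. Pou3f4 was 0.61 in the alar plate, -0.31 in the forebrain and 0.74 for alar plate against forebrain without the 3 libraries, and -0.62 (without alar plate 2) to 0.62 (without alar plate 3) in the alar plate when 1 library was left out. Pou6f1 was 0.24 in the alar plate and -0.25 for dorsal midbrain against alar plate without the 3 libraries, and -0.18 (without alar plate 2) to 0.23 (without alar plate 3) in the alar plate when 1 library was left out. The edgeR test on recovered reads was left out; limma voom on the same reads, chosen after seeing the data, gave 6, 17 and 22 calls for the 3 kinds of comparison. Other scalings moved the median of all genes by at most 0.07 on the log2 scale.

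With a replicate block the 3 counts were 6, 16 and 28, and 4811 genes were called across the regions against 4631. Pou3f1 in the ventral midbrain was no longer called (adjusted p = 0.0523). Same-numbered libraries of different regions did not all deviate together: 18 of 30 pairs had a correlation of deviations above 0.1 (range -0.18 to 0.40, median 0.24, against -0.10 for other pairs). As a hint from the data, 12 of 15 libraries correlated best with one of their own number.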

Other observations

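Among further members of the family and its cofactors, Pou2f1 and Pou2f2 had an adjusted p of 0.58 and 0.0614 across the regions by limma. Pou1f1, the pituitary factor, was listed at 0 in all 15 libraries. Pou2f3, Pou5f1, Pou5f2 and Pou2af1 stayed at or below 0.0681 RPKM. Pou2f2 (Oct2) was 41.5 RPKM in forebrain 1 and 18.0 and 20.8 in forebrain 2 and 3, and 9.97, 10.8 and 10.4 in the ventral midbrain, which was lower than the forebrain (-1.19 on the log2 scale, adjusted p = 0.0467, a call made in 1.94% of all genes). In alar plate 3 it was 5.81 RPKM, against 16.0 and 16.0 in the pair. Pou2f1 (Oct1) ranged from 3.26 RPKM in alar plate 3 to 10.9 in forebrain 1. Pou3f4, Pou6f1, Pou2f1 and Pou2f2 thus shared their lowest value in alar plate 3, whereas Pou3f1, Pou3f2, Pou3f3 and the 3 class IV genes did not.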
